A study of Mus musculus with 15 samples.

Results

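The Snord115 array is a run of 137 annotated *Snord115* copies on mouse chromosome 7, at chr7:66597596-66874465 in mm9. All peaks of 5 lists from chromatin isolation by RNA purification with sequencing (ChIRP-seq) that overlapped this interval by at least 1 base were taken, 458 of 97524 peaks in all. In ChIRP, biotinylated oligos complementary to an RNA are used to pull that RNA, with the DNA cross-linked to it, out of sonicated chromatin. The lists come from adult mouse brain and were made to find the DNA that the lncRNA *116HG*, the spliced host transcript of the *Snord116* snoRNAs, co-purifies with. Oligos against *116HG* were used on WT C57BL/6J brain in 2 libraries, replicates 1 and 2. The same oligos were used in 1 library on Snord116del (+/-) brain of the strain B6(Cg)-Snord116tm1.1Uta/J, which lacks the *Snord116* copies on the paternal chromosome and keeps the *Snord115* array. Non-specific control (NSC) oligos were used on WT brain in 1 library and on Snord116del (+/-) brain in 1 library. These 3 are the controls, none of them replicated. A WT input library was the background for calling peaks. Each ChIRP used 1 hemisphere of a brain, which mixes neurons with cells that do not transcribe the array, and the study's methods call replicates 1 and 2 biological replicates, while the labels name no mice.

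*Snord115* copies encode C/D box snoRNAs, small nucleolar RNAs that guide 2′-O-methylation through the bases upstream of their D box. They lie in introns of a long transcript that starts at the imprinting centre near *Snrpn*, runs through *Snord116*, *116HG* and the *Snord115* host transcript *115HG*, and reaches *Ube3a* in antisense. In neurons this transcript is made from the paternal chromosome, and the bases before the D box of *Snord115* are complementary to an alternatively spliced and edited exon of *Htr2c*, which encodes a serotonin receptor.

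The annotated copies show what the array repeats. All 137 lay on the minus strand and 130 of them were 79 bases long. There were 57 distinct sequences, and 82 copies were within 1 base change of the most frequent one. The 3 most frequent sequences, with the C box (TGATGA in the first 15 bases) and the D box in capitals, were carried by 33, 23 and 6 copies. They are given 5′ to 3′ on the minus strand of the mm9 reference, together with the most different copy.
most frequent copy, for example chr7:66648931-66649009: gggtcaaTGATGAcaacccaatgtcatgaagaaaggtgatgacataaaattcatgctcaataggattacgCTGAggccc
next most frequent copy, for example chr7:66745931-66746009: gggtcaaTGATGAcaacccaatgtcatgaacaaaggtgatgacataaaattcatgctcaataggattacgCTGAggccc
the third, for example chr7:66682165-66682243: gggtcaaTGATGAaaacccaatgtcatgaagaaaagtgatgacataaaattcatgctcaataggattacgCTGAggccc
most different copy, chr7:66597596-66597664: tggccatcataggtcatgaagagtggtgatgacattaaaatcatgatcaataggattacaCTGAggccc
Counting from 1 at the 5′ end, the second sequence differs from the first by G31C and the third by C14A and G35A. The most different copy is 69 bases long, 20 edits from the first, and is the last one that a transcript reading through the array meets. The C box letters TGATGA stood in the first 15 bases of 125 copies and not in those of the most different copy, and CTGA stood in the last 15 bases of 134. An 18-base stretch, bases 53 to 70 of the most frequent copy, was complementary to *Htr2c* transcripts of the reference, and 105 copies carried it unchanged.
*Htr2c*-complementary stretch: atgctcaataggattacg
Copies followed each other at a median of 1871 bases from start to start (quartiles 1869 and 1872), and 127 of 136 spacings were between 1800 and 2000 bases. The longest spacing was 11769 bases.

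Of the 458 peaks, 14 of replicate 1 and 30 of replicate 2 shared a base with a copy. The peaks that carry the pattern described below are shown 5′ to 3′ on the minus strand, with the letters GTAAGT and TTTGCAG, where a peak holds them, in capitals. The first 2 have the largest fold over input of replicate 1 in the array, 194.95 each, and their middles lie just upstream of a copy. The first of them also reaches into the copy, and the second holds neither set of letters. The third has the largest fold among peaks downstream of a copy, 102.6.
replicate 1, chr7:66612432-66612660: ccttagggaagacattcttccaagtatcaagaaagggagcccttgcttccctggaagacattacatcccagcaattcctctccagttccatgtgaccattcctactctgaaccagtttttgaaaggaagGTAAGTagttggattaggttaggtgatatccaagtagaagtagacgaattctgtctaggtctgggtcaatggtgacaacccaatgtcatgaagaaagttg
replicate 1, chr7:66747942-66748075: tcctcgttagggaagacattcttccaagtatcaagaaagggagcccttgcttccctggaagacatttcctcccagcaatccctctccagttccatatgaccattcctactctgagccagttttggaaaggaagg
replicate 1, chr7:66617668-66617770: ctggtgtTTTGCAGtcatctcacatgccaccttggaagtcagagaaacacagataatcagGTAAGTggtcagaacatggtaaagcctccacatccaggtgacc
The pair of peaks of the 2 replicates that shared the most bases, 187, is shown next. The replicate 2 peak of this pair runs on through the whole copy.
replicate 1, chr7:66846834-66847060: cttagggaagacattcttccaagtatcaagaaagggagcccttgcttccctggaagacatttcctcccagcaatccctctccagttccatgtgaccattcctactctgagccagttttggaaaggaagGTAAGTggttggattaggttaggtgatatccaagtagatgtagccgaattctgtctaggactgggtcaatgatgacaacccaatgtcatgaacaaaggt
replicate 2, chr7:66846762-66847020: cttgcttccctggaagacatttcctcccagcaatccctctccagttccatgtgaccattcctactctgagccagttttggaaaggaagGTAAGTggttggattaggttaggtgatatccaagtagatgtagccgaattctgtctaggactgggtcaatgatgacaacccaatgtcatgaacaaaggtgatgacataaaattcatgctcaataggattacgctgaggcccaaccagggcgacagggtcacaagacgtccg
The last is the single control peak, from *116HG* ChIRP on Snord116del (+/-) brain.
Snord116del (+/-), chr7:66649579-66649848: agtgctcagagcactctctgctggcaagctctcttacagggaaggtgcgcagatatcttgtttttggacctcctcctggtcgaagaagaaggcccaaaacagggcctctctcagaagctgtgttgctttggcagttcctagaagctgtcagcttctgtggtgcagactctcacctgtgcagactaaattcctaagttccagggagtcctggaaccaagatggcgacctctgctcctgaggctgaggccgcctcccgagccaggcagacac

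The lists differed before the array was considered. They held 78033 peaks for replicate 1, 11145 for replicate 2, and 3648, 1280 and 3418 for WT NSC, Snord116del *116HG* and Snord116del NSC. The middle base of a peak lay in an annotated exon for 72% of the replicate 1 list, against 2.37% of the replicate 2 list and 3.05% to 22.3% of the controls, so replicate 1 stood apart from the other 4 lists. The part of this difference in the results that follow was not tested, nor was whether replicate 1 holds sequence derived from RNA as well as DNA. Results are therefore given for each replicate on its own, except for the comparison of mean shares over libraries and its alternatives. Intervals on shares are exact (Clopper-Pearson) 95% intervals, treat peaks as independent, and cover counting error only.

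*116HG* ChIRP on WT brain gave many peaks over the *Snord115* array and the controls gave 1 in all. Replicate 1 had 239 array peaks, 0.306% of its list (0.269 to 0.348). Replicate 2 had 218, or 1.96% of its list (1.71 to 2.23). WT NSC had 0 of 3648, with an exact interval of 0 to 0.101%. A limit of 3 counts for a count of 0 would be 0.0822%. Snord116del *116HG* had 1 of 1280, or 0.0781% (0.00198 to 0.435). Snord116del NSC had 0 of 3418, with an exact interval of 0 to 0.108%, where 3 counts would be 0.0878%. Both WT *116HG* lists lay above the observed share of each control, but the interval of the Snord116del *116HG* library covers the share of replicate 1.

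**Figure D1:**
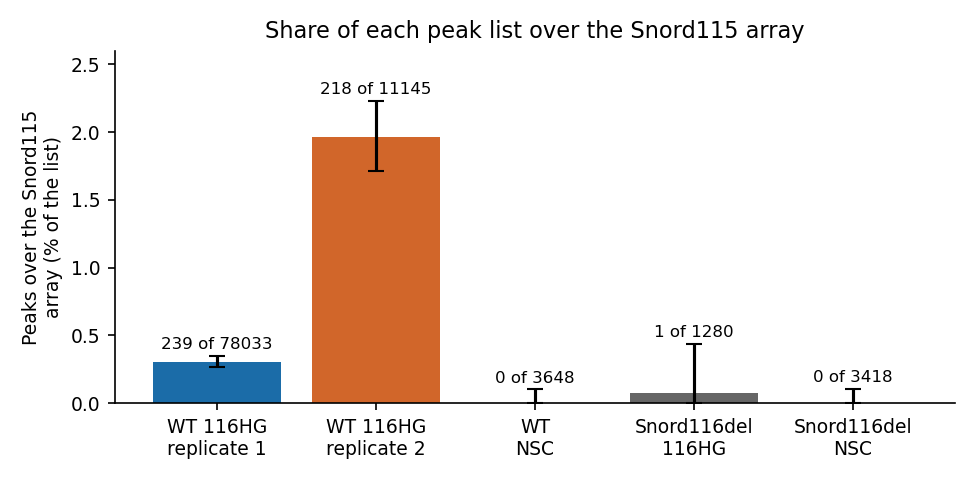
Bars give the peaks over the array as a percentage of each list, with exact 95% intervals as error bars and the counts above them. Replicates 1 and 2 reached 0.306% and 1.96%, and the 3 controls between 0 and 0.0781%.

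Over libraries, the mean share was 1.13% ± 1.17 (SD, n = 2) for WT *116HG* and 0.026% ± 0.0451 (SD, n = 3) for the controls, a difference of 1.11 percentage points. The exact two-sided permutation test gave p = 0.2, which is the smallest p that 10 regroupings of 5 libraries allow. The difference was 1.93 percentage points without replicate 1 and 0.28 without replicate 2, so its size rested on replicate 2. The difference was 0.0792 percentage points when only peaks with a unique middle 50 bases were kept in every list. With peaks closer than 2 kb merged it was 0.0954, with p = 0.4 in the permutation test. With peaks closer than 10 kb merged, replicate 1 kept 2 regions and replicate 2 kept 4, and the difference in shares fell to -0.00331 percentage points.

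The array is 0.182% of chromosome 7 and held 4.56% of the replicate 1 peaks and 26.6% of the replicate 2 peaks of that chromosome. Per 100 kb, replicate 1 had 86.3 peaks in the array and 3.28 over the rest of chromosome 7, a ratio of 26.3. Replicate 2 had 78.7 against 0.396, a ratio of 199. Peaks in the array were therefore about as dense in one replicate as in the other, and the difference in ratio came from the sparser peaks of replicate 2 elsewhere on the chromosome.

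Peak density dropped at both ends of the array. Within 10 kb below its lower bound, on the *Ube3a* side, replicate 1 had 2 peaks and replicate 2 had 0. Within 10 kb above its upper bound, on the *Snord116* side, each had 1. The nearest replicate 1 peaks outside were chr7:66589346-66589448 and chr7:66880066-66880181. On the *Ube3a* side the nearest replicate 2 peak was chr7:65211496-65211602. The 54.4 kb between the array and the *Snord116* copies held 4 peaks of replicate 1 and 9 of replicate 2. The *Snord116* region, which includes the sequence between its copies, held 30 of the 78033 replicate 1 peaks and 61 of the 11145 replicate 2 peaks. It held 8 of the 3648 WT NSC peaks and 0 in each Snord116del library. As a share of its list, WT NSC thus lay above replicate 1 and below replicate 2 there.

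The replicates shared the array more than they shared single positions. Of the 239 replicate 1 array peaks, 66 overlapped a replicate 2 peak by at least 1 base (27.6%, 22 to 33.7), against 2.45% of its whole list. Of the 218 replicate 2 array peaks, 70 overlapped a replicate 1 peak (32.1%, 26 to 38.7), against 17.2% of its whole list. Within 10 kb, 92.1% of the replicate 1 and 100% of the replicate 2 array peaks had a neighbour in the other list, against 10.4% and 38.1% list-wide. At 1 kb the shares were 68.6% and 99.5%. Nearly every replicate 2 peak had a replicate 1 peak within 1 kb, while many replicate 1 peaks had no replicate 2 peak within 1 kb. Replicate 1 had a peak in 134 of the 137 stretches that run from a copy start to the next. Few places in the array thus lay far from a replicate 1 peak. With peaks this dense, a neighbour within 1 kb or 10 kb is a weak criterion. Peaks of both replicates were sparser over the rest of chromosome 7, so the list-wide shares are no like baseline for the 1-base overlap either. The overlap that peaks placed at random in the array would reach was not computed. The list-wide shares at 1 kb were not computed.

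The 70 overlapping pairs shared a median of 82 bases (6 to 187), and in 51 of them this was at least 50% of the shorter peak. The 3 longest overlaps were 187, 182 and 168 bases, and the middles of their peaks lay just upstream of a copy start. In the first 2 pairs the peaks of both replicates also reached into the copy. In the third only that of replicate 2 did. In all 3 pairs the replicate 1 peak had a fold of 102.6 or more.

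Replicate 1 peaks sat at 2 fixed places in the repeat unit, one on each side of the *Snord115* copy. Counting bases downstream from the 5′ start of the nearest copy upstream, the middle of 121 of the 239 peaks fell at 1700 to 1799 bases and that of 81 at 300 to 399 bases. Together these 100-base bins held 84.5% of the peaks in 10.7% of the unit. For replicate 2 the fullest bins began at 900 bases, with 27 peaks, and at 300 bases, with 24, and held 23.4% of its 218 peaks. The 2 lists thus had 1 of their fullest bins in common.

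**Figure D2:**
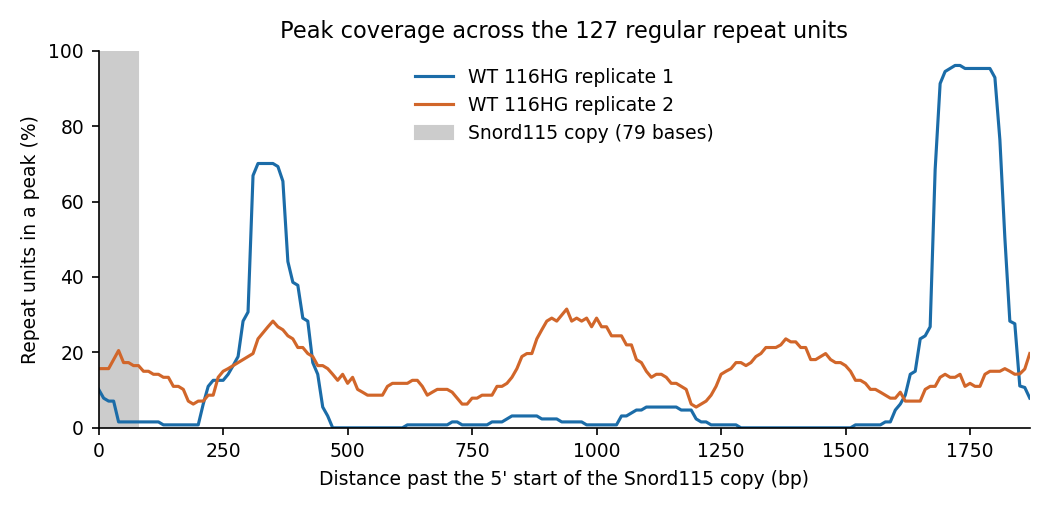
Lines give the percentage of the 127 repeat units of 1800 to 2000 bases that lay in a peak, by distance in bases past the 5′ start of the copy, with the copy shaded. Replicate 1 reached 70.1% at 315 bases and 96.1% at 1719 bases and was low between them, while replicate 2 stayed between 4.72% and 31.5%.

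Over the 127 regular units, 96.1% lay in a replicate 1 peak at 1719 bases past the copy start, which is just upstream of the next copy, and 70.1% at 315 bases. At 384 of 1871 positions no unit lay in a replicate 1 peak. In replicate 2 there was no such empty position. Its coverage was highest at 933 bases, with 31.5% of units, and lowest at 4.72%.

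To describe the 2 places, array peaks were grouped by the distance of their middle base from the nearest copy start. The ranges were set after the positions of replicate 1 had been seen, so its share in them is a description. The upstream range covered 1 to 200 bases before the copy start and the downstream range 200 to 499 bases after it, together 24.4% of the array. In replicate 1, 127 peaks were upstream (53.1%), 91 downstream (38.1%) and 21 elsewhere (8.79%). In replicate 2, 23 were upstream (10.6%), 43 downstream (19.7%) and 152 elsewhere (69.7%). Both ranges together held 91.2% of replicate 1 (86.9 to 94.5) and 30.3% of replicate 2 (24.3 to 36.8), a share near that of the array the ranges cover.

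The positions of replicate 1 varied little between units. The middle of an upstream peak lay at a median of -122 bases from the copy start, with quartiles of -131.5 and -113.5, and the median peak ran from -193 to -50. A downstream peak had its middle at a median of 343 bases (quartiles 336 and 362.5) and ran from 303 to 406. Neither median peak reached into the 79 bases of the copy. In all, 14 replicate 1 peaks (5.86%) and 30 replicate 2 peaks (13.8%) shared a base with an annotated copy. The share that peaks of these widths would reach at random places was not computed. At 0 and 40 bases past the copy start, 10.2% and 1.57% of the regular units lay in a replicate 1 peak. For replicate 2 this was 15.7% and 20.5%.

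Of the 137 copies, 127 had a replicate 1 peak in the upstream range, 91 had one in the downstream range, 87 had both and 6 had neither. In replicate 2, 23 copies had an upstream peak, 40 a downstream peak, 9 both and 83 neither. The distances between neighbouring peaks repeat the same pattern. In replicate 1, 92 of 238 distances between middles were at least 400 and under 600 bases, as across a copy, and 81 were at least 1300 and under 1500 bases, as from one copy to the next. The second neighbour lay 1800 to 2000 bases away for 131 of 237 replicate 1 peaks (55.3%) and for 15 of 216 replicate 2 peaks (6.94%).

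Overlap between the replicates followed the place in the unit. All 23 replicate 2 peaks in the upstream range overlapped a replicate 1 peak, as did 31 of 43 in the downstream range (72.1%) and 16 of 152 elsewhere (10.5%). Replicate 1 covered almost every unit in the upstream range, so few replicate 2 peaks placed there could miss one. Both ranges were set where replicate 1 peaks lie, so more overlap in them than elsewhere is built in and is no separate result.

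Almost every repeat unit held a peak of replicate 1. By the middle base of the peak, 134 of 137 units (97.8%) had a replicate 1 peak and 89 (65%) a replicate 2 peak. All 89 also had a replicate 1 peak, 45 units had a peak of replicate 1 alone, and 3 had none. The controls had a peak in 1 unit.

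The fold over input, which the authors deposited for every list but replicate 2, differed between the 2 places. In replicate 1 the median was 103 upstream of a copy (quartiles 71.8 and 133, range 30.78 to 194.95). Downstream of a copy it was 61.6 (51.3 and 82.1, range 27.63 to 102.6). Elsewhere it was 41 (30.8 and 51.3, range 24.54 to 112.87). The 3 sets overlap, and the upstream peaks above their upper quartile lie above every downstream peak. No test is given, since peaks of 1 library are not replicates.

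**Figure D3:**
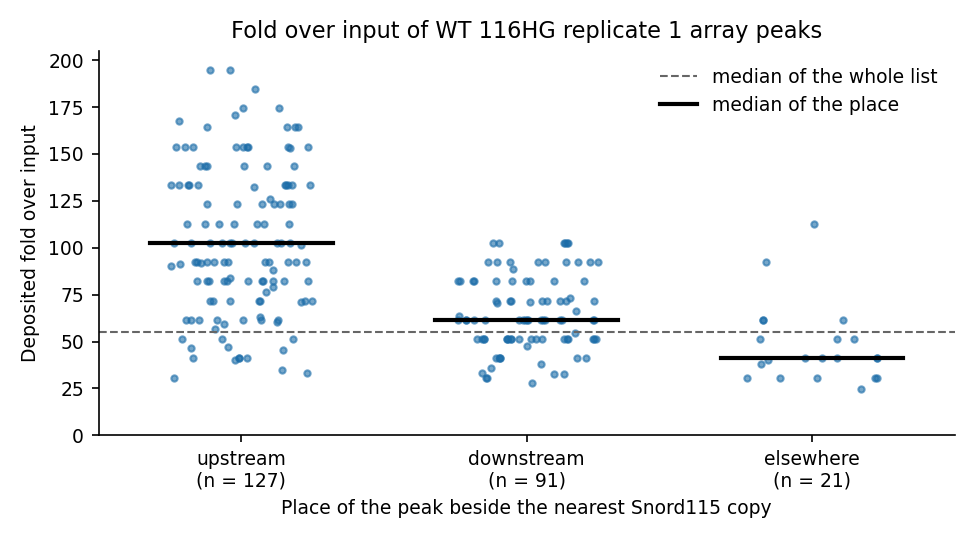
Points are the deposited fold over input of the 239 replicate 1 array peaks, by place beside the nearest copy, with black lines for the medians of each place (103, 61.6 and 41) and a dashed line for the list median of 55.3. The peaks above 112.87 are all upstream of a copy.

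Array peaks had higher folds than the replicate 1 list as a whole. Their median was 82.1 against 55.3, 174 of 239 lay above the list median, and 98 (41%) were at or above the list's upper quartile of 85.4. The values moved in steps: 196 of the 239 (82%) were whole multiples of 10.26, within 0.02, from 3 to 19 times, against 67.9% of the list. Neighbouring values within an array place are therefore often tied, with 27 peaks at 61.56. The 2 largest folds, 194.95, and the third, 184.69 at chr7:66702879-66703070, lay 261.9, 126.5 and 171.5 kb from the upstream end of the array. The smallest was 24.54, at chr7:66834449-66834595, a peak elsewhere in its unit that overlapped a replicate 2 peak.

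Specific letters recurred at the 2 places. Both were picked after the peak sequences had been seen. GTAAGT matches the usual first bases of an intron, and TTTGCAG resembles the letters that end one. On the minus strand GTAAGT occurred 258 times in the array, 123 times at a median of -62 bases from a copy start and 129 times at a median of 364 bases. TTTGCAG occurred 123 times, 122 of them in the downstream range at a median of 311 bases. Downstream, the bases between the end of TTTGCAG and the start of GTAAGT numbered 46 in 118 of 120 cases. In the replicate 1 peak at chr7:66617668-66617770, printed above, both are in capitals.

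Of the replicate 1 array peaks, 173 (72.4%) held GTAAGT on the minus strand, against 13% of all 144-base windows of the array. TTTGCAG was in 81 (33.9%), against 6.13% of windows. By place, GTAAGT was in 84 of 127 upstream and 87 of 91 downstream peaks, and TTTGCAG in 0 and 80. In replicate 2, GTAAGT was in 52 peaks (23.9%), against 13.5% of 150-base windows, and TTTGCAG in 27 (12.4%), against 6.4%. Most of these were in the 2 ranges, with GTAAGT in 17 of 23 upstream and 33 of 43 downstream peaks and in 2 of 152 elsewhere. On the plus strand, GTAAGT was in 1 replicate 1 peak (0.418%, windows 6.38%) and in 36 replicate 2 peaks (16.5%, windows 6.65%). TTTGCAG on the plus strand was in 1 peak of replicate 1 and 0 of replicate 2, against 0.898% and 0.937% of windows. Over the whole lists, on either strand, GTAAGT was in 8.19% of replicate 1 and 3.54% of replicate 2 peaks, and TTTGCAG in 4.49% and 1.42%. On the minus strand these letters stand at the 2 places in most units. Their shares in peaks there follow from the position of the peaks and are no separate result. The matches are letters and were not tested as splice sites. In the GENCODE annotation of NCBIM37, the middle base of 1 replicate 1 and 7 replicate 2 array peaks lay in an exon. The 137 exons it places in the array are all *Snord115* copies and none is of the host transcript, so this count does not say whether peaks lie in exons of *115HG*.

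Along the array the replicates differed. In 4 successive stretches of 69.2 kb, counted from the upstream end nearest *Snord116*, replicate 1 had 60, 65, 63 and 51 peaks. Replicate 2 had 103, 81, 30 and 4. These stretches held 38, 33, 36 and 30 copies, and the number of copies thus fell far less than the number of replicate 2 peaks. The upstream 138 kb held 52.3% of replicate 1 peaks and 84.4% of replicate 2 peaks.

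**Figure D4:**
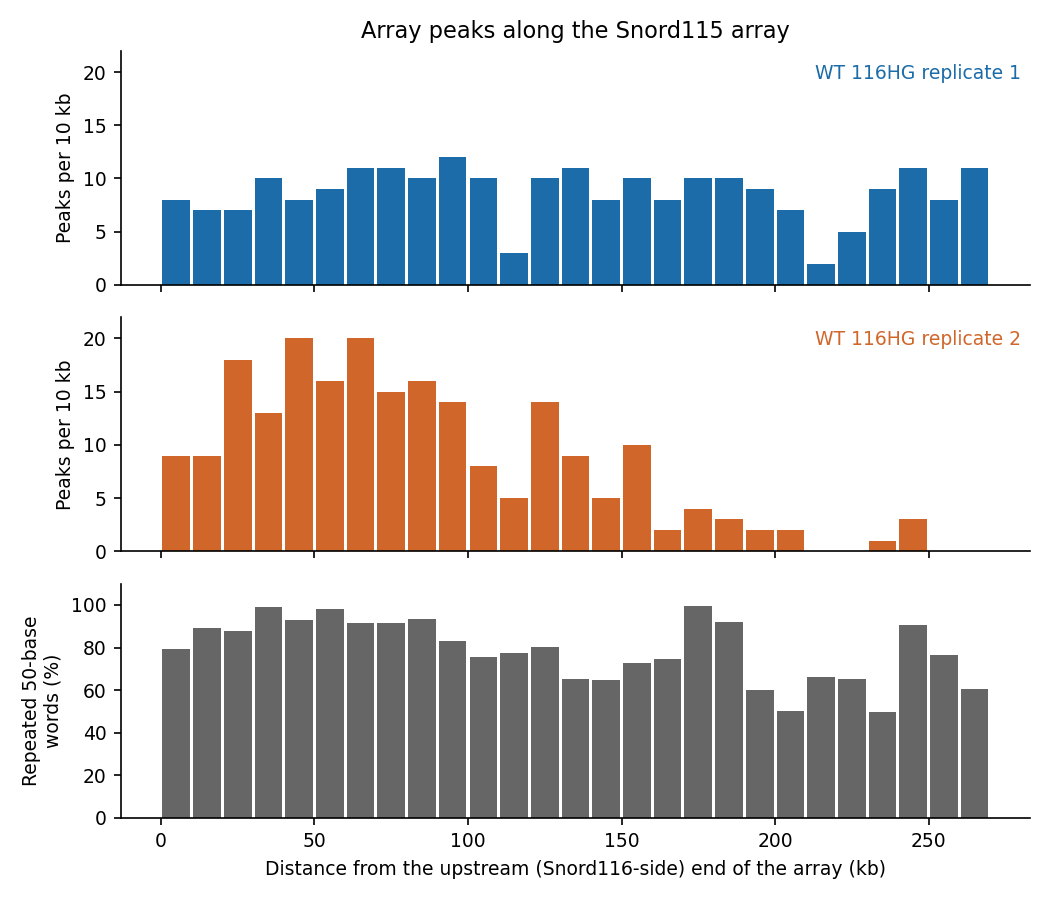
Bars give the peaks of each replicate, and the percentage of 50-base words of the reference that occur more than once in the genome, in 27 bins of 10 kb from the upstream end of the array. The short stretch beyond the last bin is not drawn. Replicate 1 had 2 to 12 peaks per bin throughout, while replicate 2 reached 20 in the first 70 kb and had 0 to 4 per bin from 160 kb on.

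In 27 bins of 10 kb, replicate 1 had 2 to 12 peaks (median 9) and replicate 2 had 0 to 20 (median 8). Spearman's rho with the distance from the upstream end was 0.01 for replicate 1 and -0.85 for replicate 2, over bins that share their library and lie side by side, so no p is given. The first array peaks lay 1.3 kb (replicate 1) and 1.5 kb (replicate 2) from the upstream end. The last lay 276.6 kb and 245.5 kb from it. The last stretch, where replicate 2 had 4 peaks, was not short of replicate 1 peaks, and their median fold there was 61.6 against 82.1, 82.1 and 92.3 in the others.

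Repeat content moved along the array too. The share of 50-base words of the reference that occur more than once in the genome was 91.3%, 81.2%, 74.6% and 60.2% in the 4 stretches. Over the 27 bins its Spearman's rho was 0.26 with replicate 1 and 0.64 with replicate 2 peaks. Bins with over 90% repeated words occurred in both parts of the array. The 6 in the first 130 kb had 13 to 20 replicate 2 peaks each, and the 3 from 170 kb on had 3 or 4 each, while replicate 1 had 8 to 11 and 10 or 11. These bins are few and come from a single library per replicate, and the part of repeat content in the decline of replicate 2 was not tested.

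The peaks themselves were largely repeated sequence. The middle 50 bases had more than 1 genome match for 197 of 239 replicate 1 array peaks (82.4%, 77 to 87) and 212 of 218 replicate 2 array peaks (97.2%, 94.1 to 99). List-wide this was 11.7% of replicate 1 and 42.1% of replicate 2, and over the array 76.8% of 50-base words. The middle word had a median of 17 genome matches in replicate 1 and 43.5 in replicate 2. All matches lay inside the array for 194 of the 197 and for all 212, and none lay in the *Snord116* region. A read from such a word can be placed in several units, so the unit a peak was assigned to is less certain than its place within the unit. Of the other array copies of the middle words, 71.8% also lay in a peak of the same list in replicate 1 and 33.4% in replicate 2.

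Peaks whose middle word was unique kept the place within the unit in replicate 1. There were 42 of them, and 88.1% lay in the 2 ranges. Replicate 2 had 6, of which 66.7% did. Upstream peaks of replicate 1 were repeated in 74% and downstream peaks in 95.6% of cases. No 32-base word of any array peak occurred in the *Snord116* region, against 2.5% of all words of the array. The counts were 0 of 28200 words of replicate 1, 0 of 30787 of replicate 2 and 0 of 239 of the control peak. The sequences of the ChIRP oligos were not analysed here, so matches of the oligos to the array were not searched. Peaks were of like width, with a median of 144 bases (59 to 338) in replicate 1 and 150 (67 to 497) in replicate 2. Median GC content was 46.8% and 43.9%, against 44.2% for the array.

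The single control peak lay in the longest gap between copies, 11065 bases past the start of a copy. It had a fold of 22.35 and a width of 270 bases, against medians of 22.4 and 361.5 in its own list. Its GC content was 55.2%. Its middle 50 bases had 9 matches in the genome and 1 in the array. It held neither GTAAGT nor TTTGCAG and overlapped no peak of the other lists. To lack the letters or an overlap was common in replicate 2 as well. There only 52 of 218 array peaks held GTAAGT, only 27 held TTTGCAG and only 70 overlapped a replicate 1 peak. The nearest replicate 1 peak was 378 bases away and the nearest replicate 2 peak 6027 bases away.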

How the data were processed

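The members, the ranges beside a copy and the letters searched were chosen with earlier results of these data known. The authors aligned ChIRP reads to mm9 with Bowtie2 and called peaks with MACS in each library against input. Their filters were 5% on the false discovery rate and 20 on the enrichment over input. The submitters' processing notes name CASAVA 1.8.0, Bowtie2 2.0.0, MACS 1.4.2, TopHat2 2.0.5 and Cuffdiff 2.0.2. How reads with several matches were placed is not given in the sources used here. In 4 of 5 lists the authors deposited a ratio per peak, its fold over input. The list of replicate 2 gives positions only. Starts were read as counted from 0, as in BED files, and are printed counted from 1. The number of peaks per list sets the precision of a share within that list only. The comparison between groups rests on 2 WT *116HG* libraries and 3 controls.

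Peaks were placed by their middle base, on the minus strand, relative to *Snord115* copies annotated by GENCODE on NCBIM37, which is the mm9 assembly. The middle 50 bases were counted in the whole reference on both strands. Letters were searched exactly on each strand. Shares per library were compared by an exact permutation test, and other comparisons are descriptions. For the sequences, the rule printed the peaks of largest fold, the longest overlaps, the most frequent copies and the control peak. Other named peaks are those of largest or smallest fold, largest width or outermost position. The interval code and the word counter were tested on simulated data. Alternatives covered the bounds of the array, the denominator, merging, the fold threshold, the overlap rule, the word length and each library left out. Of the alternatives, those for the ranges beside a copy and for its upstream part were chosen after seeing the data. The RNA-seq table was not used, since no gene row in it is annotated inside the array. Python 3.11.15, numpy 2.4.6, scipy 1.17.1, pysam 0.24.0, numba 0.67.0 and matplotlib 3.10.9 were used.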

Additional observations from a re-analysis of the deposited data

How the results depend on the processing

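With peaks closer than 2 kb merged, the array peaks became 9 regions in replicate 1 and 23 in replicate 2, of which 66.7% and 100% overlapped the other list, and 22.2% and 39.1% lay in the upstream 138 kb of the array. With peaks closer than 10 kb merged they became 2 and 4 regions, and the difference in share between WT *116HG* and the controls was reversed, at -0.00331 percentage points. With the 2 kb rule the difference was 0.0954 percentage points, and with only peaks of unique middle word it was 0.0792, against 1.11 in the main setting. Merging by its construction turns neighbouring peaks of a dense array into 1 region. Leaving out each library in turn, that difference ranged from 0.28 to 1.93 percentage points.

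Only 42 and 6 array peaks had a unique middle 50-base word. They lay in 38 and 6 repeat units, 2 of them shared, and 66.7% of those of replicate 2 were in the ranges beside a copy. At or above the upper quartile of fold, 98 replicate 1 peaks were left, of which 98% lay in those ranges, and 12.4% of the replicate 2 peaks overlapped one. When 50% of the shorter peak had to be shared, 21.3% of the replicate 1 and 23.4% of the replicate 2 array peaks overlapped. With a gap of at most 1 kb this was 68.6% and 99.5%, and with at most 10 kb 92.1% and 100%. The share of peaks with a repeated middle was 90% in replicate 1 with 32 bases. With 100 bases it was 67.8% and 92.7%, and 61.1% and 88.1% when any unique 50-base window counted the peak as unique. Of 66 alternatives in all, 35 left the value within the limits set for it, 30 moved it beyond them and 1 reversed it. For the difference in share between the WT libraries and the controls, falls from 1.11 to 0.0954 and 0.0792 percentage points counted among the 35. The count of 35 therefore does not show that the size of this difference was stable.

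No paired analysis was possible because the peak lists give each control group 1 library and the replicate numbers of the RNA-seq samples belong to samples that were not used. With 2 WT *116HG* libraries and 3 controls, the smallest p was 0.2 in the test of that difference of 1.11 percentage points. The read totals that the study gives per library were not used here, and depth enters only through the number of peaks per list. Replicate 2 has no folds to rank.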
